A study of Mus musculus with 7 samples.

Results

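The 9 genes described here encode the urokinase receptor and proteins that make or dissolve blood clots: Plaur, Plau, Serpinb2, Thbs1, F5, F7, F10, Tfpi and Procr. They were chosen by name among 50435 gene rows, and all 9 were found. The RNA came from bone marrow cells sorted as CD31+ and Sca1-, without CD45, Ter119, Gr1 or CD11b, a gate used for sinusoidal endothelial cells, which line the venous vessels of the marrow. Wild-type mice had been irradiated and had received Zbtb46dtr marrow, whose cells make a receptor for diphtheria toxin where they use Zbtb46, a marker gene of classical dendritic cells. After 8 weeks, 3 samples came from mice injected with 200 ng of diphtheria toxin (DT) in 100 µl of PBS and 4 from mice injected with PBS alone. Marrow was taken 1 day later. Both groups carried the same graft and had been irradiated. The vessels of such chimeras come largely from the wild-type host, whereas any graft-derived cell using Zbtb46, which is also known from some erythroid progenitors, carries the receptor. No source used here gives the strain, age or sex of the mice, or how many stand behind a sample. The samples are called biological replicates, and p-values set the group difference against the spread between samples.

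Clotting starts when tissue factor, exposed at a wound, binds factor VII. The complex activates factor X, which with its cofactor factor V turns prothrombin into thrombin, and thrombin makes fibrin. Tissue factor pathway inhibitor (Tfpi) blocks the first steps, and the endothelial protein C receptor (Procr) helps thrombin switch on the anticoagulant protein C. Fibrin is dissolved by plasmin, which urokinase (Plau) releases from plasminogen at the cell surface while bound to its receptor (Plaur). Serpinb2 inhibits urokinase, and thrombospondin 1 (Thbs1) is a matrix protein of platelets, macrophages and vessels that binds several of these proteases. Most circulating clotting factors are made in the liver, but neutrophils, monocytes, macrophages and megakaryocytes express some of these genes.

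The upstream sequences of the 3 genes with the clearest rise and a sequence in the table used are shown first, because they differ in the motifs they hold. They are the 250 bases before the RefSeq start of each gene on GRCm38.p6, on the strand of the gene, with matches to 4 searched motifs in capitals. They lie at chr7:24462233-24462482 (+) for Plaur, chr8:13037058-13037307 (+) for F10 and chr1:164151585-164151834 (+) for F5.
Plaur: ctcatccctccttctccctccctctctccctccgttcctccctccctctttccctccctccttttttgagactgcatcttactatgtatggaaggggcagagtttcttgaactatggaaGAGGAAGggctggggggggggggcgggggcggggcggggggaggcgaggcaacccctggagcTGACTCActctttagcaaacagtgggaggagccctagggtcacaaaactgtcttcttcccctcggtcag
F10: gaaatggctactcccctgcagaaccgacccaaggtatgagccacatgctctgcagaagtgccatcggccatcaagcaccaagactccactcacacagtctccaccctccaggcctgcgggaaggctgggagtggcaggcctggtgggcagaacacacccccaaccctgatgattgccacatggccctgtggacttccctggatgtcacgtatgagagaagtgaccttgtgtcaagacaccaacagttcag
F5: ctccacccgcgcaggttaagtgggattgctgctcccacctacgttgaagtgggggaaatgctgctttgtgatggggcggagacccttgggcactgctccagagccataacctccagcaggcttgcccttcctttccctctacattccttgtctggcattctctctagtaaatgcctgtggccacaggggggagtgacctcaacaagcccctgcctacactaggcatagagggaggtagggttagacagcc
In Plaur the capitals mark GAGGAAG, a core recognised by the myeloid factor PU.1, and TGACTCA, the site of the stress-responsive factor AP-1. The AP-1 match begins 69 bases before the start and the PU.1 match 131 bases before it, without overlap. F10 and F5 hold no match to these motifs in the windows searched. AP-1 (TGANTCA, both strands) was present in 7.81% of 32851 windows of 300 bases, reaching 50 bases past the start, the PU.1 core (GAGGAAG, both strands) in 13.6%, the cyclic AMP element (TGACGTCA) in 1.79% and the NF-kB consensus in 8.46%. Windows were found for 7 of the 9 genes, Plau and Thbs1 being without one.

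The AP-1 letters also occurred upstream of Procr, 154 bases before its RefSeq start, and of Serpinb2, 94 bases before its first RefSeq start. These stretches of 41 bases are shown to compare the letters around the match in 2 genes of very low level, at chr2:155751046-155751086 (+) for Procr and at chr1:107511312-107511352 (+) for Serpinb2.
Procr: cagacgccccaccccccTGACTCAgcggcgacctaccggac
Serpinb2: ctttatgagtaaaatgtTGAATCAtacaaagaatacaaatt
The Procr match has the same 7 letters as that of Plaur, and the Serpinb2 match TGAATCA carries another base in the free position. Tfpi held the PU.1 core in both of its windows, and F7 held none of the 4 motifs. A match describes letters in the window, and factor binding was not measured.

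RPM stands for reads per 1e6 reads in the library and is not divided by gene length. The libraries held an estimated 33195572 to 51245522 reads, and 3 reads, taken as the limit that a count of 0 allows, equal 0.0585 to 0.0904 RPM (counting error only). Across genes, libraries correlated with Pearson's r of 0.908 to 0.963 among PBS, 0.962 to 0.966 among DT and 0.798 to 0.875 from one group to the other. Genes that define endothelium were low: the 15 endothelial markers summed to 12.7 to 52.6 RPM in PBS and 22.4 to 36.8 RPM in DT, led by Egfl7 and Esam. Of 5 tested, 1 rose, Flt1, which had 0 to 0.621 RPM in the PBS libraries and reached the minimum for the test only through DT. Despite the exclusion of cells stained for CD45, Gr1 or CD11b, the 12 neutrophil markers, led by Ngp and S100a8, summed to 1563 to 3012 RPM in PBS and 53622 to 56950 RPM in DT, and all 12 rose (limma, adjusted p under 0.05). All 14 monocyte and macrophage markers, led by Lyz2 and Ly6c2, rose too, from sums of 391 to 766 RPM to sums of 6776 to 8779 RPM. Of the other lists, 7 of 7 tested T and NK cell genes (led by Nkg7 and Klrb1c) and 4 of 8 stem and progenitor genes (Mpo and Elane) rose and 1 of the latter fell, while 8 of 12 erythroid genes (Car2 and Car1) and 7 of 8 B-lineage genes (Cd79a and Cd79b) fell, 3 erythroid genes rose, and 0 of 4 stromal genes tested (Cxcl12 and Col1a1) passed. The stem and progenitor gene that fell was Myb, from 398 ± 59.5 RPM to 136 ± 25.1 RPM (SD, n = 4 and 3). The values are those of the sorted samples as a whole, in which more cells of a type and more RNA per cell cannot be told apart.

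Of the 9 genes, 5 averaged at least 1 RPM over all 7 libraries and entered the test across 14100 genes. Plaur, F10, F5 and Thbs1 were higher in DT, and Tfpi did not pass (limma on log2(RPM + 1), Benjamini-Hochberg adjustment over all genes tested). Each of these 5 also averaged above 1 RPM in PBS alone. Over all genes tested, 13.4% were higher and 18.6% lower at the same threshold, 32% in either direction, so that changes were common. Plau, Serpinb2, F7 and Procr lay under the minimum and are described by library. In mm10 with GENCODE vM21, Serpinb2 spans 107511423 to 107535478 and F5 164151838 to 164220277 of chromosome 1. On chromosome 2, Tfpi spans 84432855 to 84476775 on the minus strand, Thbs1 118111876 to 118127133 and Procr 155751117 to 155755471.

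**Figure D1:**
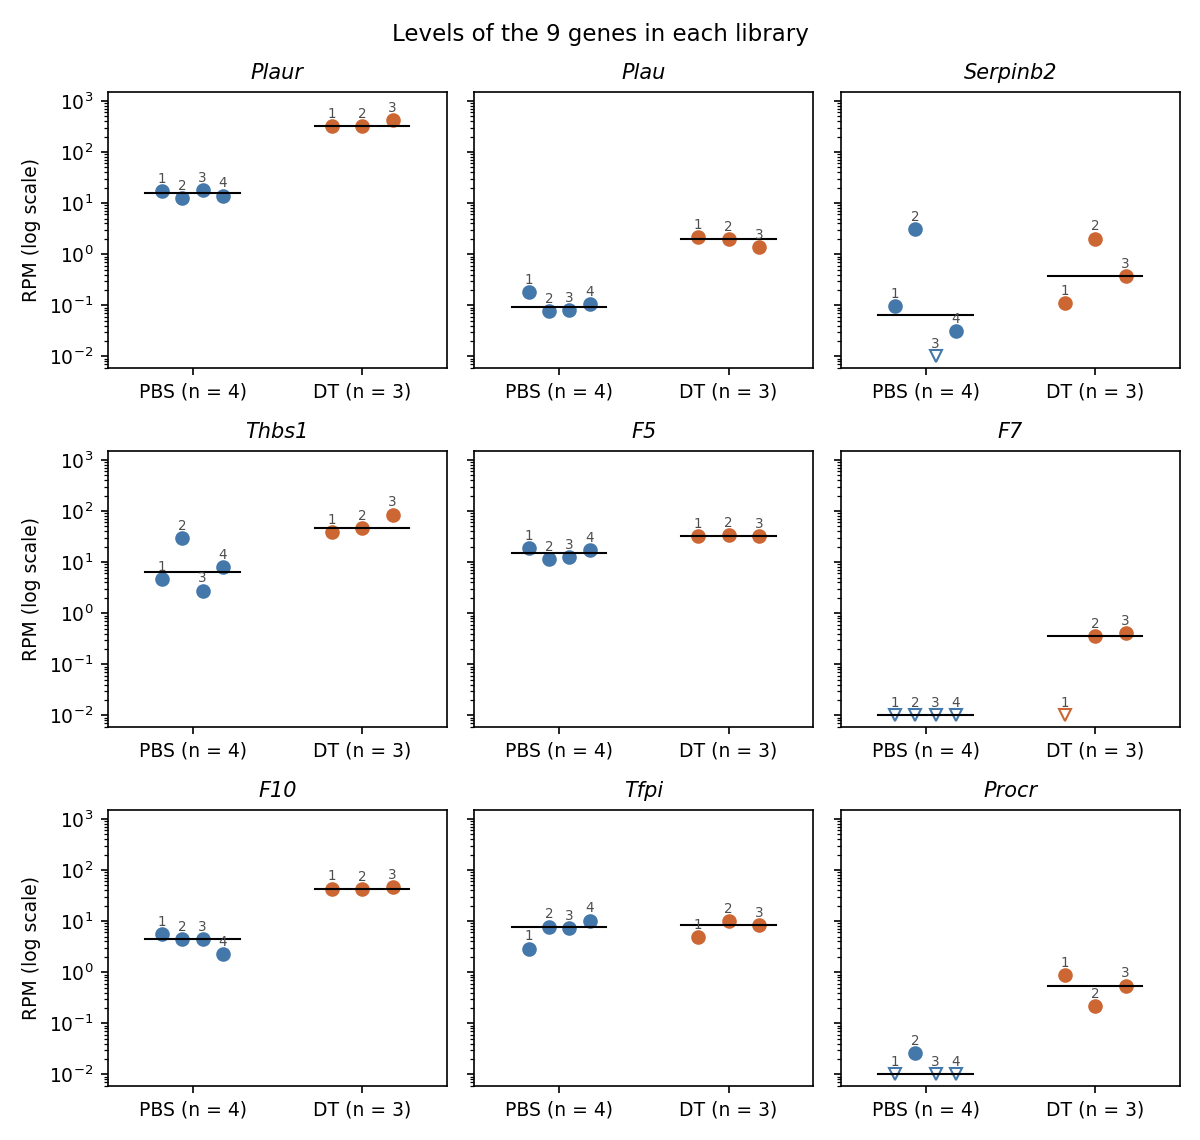
RPM of the 9 genes in each library (log scale, numbers give the replicate, lines the group medians; open triangles at the bottom mark libraries listed at 0). Plaur, Plau, Thbs1, F5, F10 and Procr have every DT library above every PBS library, whereas Serpinb2, F7 and Tfpi overlap.

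Plaur, the membrane-anchored receptor that holds urokinase at the surface of leukocytes, showed the largest difference on the log2(RPM + 1) scale of the 5 genes tested. It lies on chromosome 7 at 24462484 to 24475968 (mm10, GENCODE vM21). PBS replicates 1 to 4 had 17.4, 12.6, 18.0 and 14.0 RPM. The 3 DT replicates had 323, 325 and 422 RPM. The lowest DT library was far above the highest PBS library, and the spread within each group was small beside this gap. The means were 15.5 ± 2.60 RPM (SD, n = 4) and 356 ± 56.6 RPM (SD, n = 3), a ratio of 23.0. On the log2(RPM + 1) scale, Plaur rose by 4.44 (SE 0.18; limma, adjusted p = 7.66e-07).

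Every DT library lay above every PBS library in 16.1% of the genes tested. The genes whose profiles over the 7 libraries were most like that of Plaur were Slfn4, a myeloid gene of the Schlafen family, Pglyrp1, a peptidoglycan-binding protein of neutrophil granules, and Hp, haptoglobin. Their root mean square differences from Plaur were 0.14, 0.17 and 0.18 in log2 units, over 7 libraries and 11081 genes compared. Slfn4 went from 16.5 ± 3.41 to 396 ± 69.8 RPM, and Pglyrp1 from 38.7 ± 8.05 to 794 ± 33.9 RPM (SD, n = 4 and 3). Beside the 23.0-fold ratio of Plaur, the neutrophil marker sum had a ratio of 22.3 and the monocyte and macrophage sum one of 13.7. These sums are weighted by their most abundant genes. Single neutrophil markers had ratios of 12.4 to 34.7, and single monocyte and macrophage markers ratios of 4.57 to 24.9. Both ranges hold the ratio of Plaur. The part of these cells in the level of Plaur was not tested.

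Plau, the ligand and protease that Plaur binds, was far lower than its receptor. PBS replicates 1 to 4 had 0.181, 0.0768, 0.0792 and 0.104 RPM, equal to 6, 3, 3 and 4 reads. DT replicates 1 to 3 had 2.18, 1.95 and 1.39 RPM, equal to 88, 82 and 71 reads. The groups did not overlap, although the PBS values sat close to the floor. Pooled reads gave a DT to PBS ratio of 16.8 (95% interval 10.1 to 29.8, exact binomial, counting error only), and the exact two-sided permutation p over 35 splits was 0.0286 (n = 4 and 3), the smallest these splits can give. Without a filter on low values Plau passed across 29186 genes, of which 6.17% were higher (limma, adjusted p = 0.00232). Plau has 1 annotated locus on chromosome 14 at 20836660 to 20843385, and no other gene's exons overlap it.

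Serpinb2, the inhibitor of urokinase known from activated macrophages, did not differ detectably between the groups. In PBS replicates 1 to 4 it was at 0.0971, 3.05, 0 and 0.0314 RPM. In DT replicates 1 to 3 it was at 0.111, 2.02 and 0.378 RPM. Replicate 2 was the highest of each group, and the groups overlapped through PBS replicate 2 only (exact two-sided permutation p = 0.914, n = 4 and 3). Without PBS replicate 2 the DT mean was higher by 0.793 RPM, and without both libraries numbered 2 by 0.201 RPM (exact two-sided permutation p = 0.1 for each). The lowest DT value, 0.111 RPM, was then close to the highest PBS value, 0.0971 RPM, both near the floor. Serpinb2 shares 291 exon bases on the same strand with Serpinb10, a neighbouring serpin annotated as a polymorphic pseudogene. Its values were not whole numbers of reads in 6 of 7 libraries, so reads may have been divided between the 2 genes and the level of Serpinb2 is uncertain. Serpinb10, named after its values were seen, had a mean of 2.80 ± 1.12 RPM among PBS libraries (SD, n = 4) and of 19.4 ± 3.81 RPM among DT libraries (SD, n = 3).

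Thbs1, which binds plasminogen activators and slows fibrinolysis besides its roles in adhesion, was higher in DT but scattered in PBS. PBS replicates 1 to 4 had 4.64, 29.4, 2.77 and 7.99 RPM. In DT the values were 38.4, 46.5 and 84.9 RPM. The groups did not overlap, but PBS replicate 2 came within a short distance of DT replicate 1. The means were 11.2 ± 12.3 RPM (SD, n = 4) and 56.6 ± 24.9 RPM (SD, n = 3). On the log2(RPM + 1) scale Thbs1 rose by 2.64 (SE 0.61; limma, adjusted p = 0.01003). Thbs1 no longer passed without DT replicate 3 (log2 change 2.31, adjusted p = 0.0527) and without a filter on low values (adjusted p = 0.0611). Its nearest profiles, Chil5, Smox and Sdr42e1, were less close than those of Plaur, at 0.52, 0.53 and 0.54 in log2 units. Without both libraries numbered 2, a choice made after seeing the data, Thbs1 differed by 3.34 (adjusted p = 0.00336).

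The libraries with high Thbs1 or Serpinb2 differed in their other cell markers. The 11 megakaryocyte and platelet markers summed to 79.7, 264, 61.3 and 130 RPM in PBS replicates 1 to 4 and to 80.1, 174 and 58.9 RPM in DT replicates 1 to 3. Replicate 2 was thus the highest of each group for these markers, as it was for Serpinb2, and in PBS for Thbs1. This was not particular to platelet markers: the erythroid sum was also highest in replicate 2 of each group (10932 RPM among PBS libraries, 2019 RPM among DT libraries), and the stromal and endothelial sums peaked in PBS replicate 2, at 53.9 and 52.6 RPM. None of the 10 platelet markers tested passed, with a median log2 change of -0.17 (limma). The chemokine genes Pf4 and Ppbp led the list, Pf4 at 45.8 ± 25.5 RPM and 41.1 ± 27.5 RPM (SD, n = 4 and 3). DT replicate 3, the highest for Thbs1, had the highest monocyte and macrophage sum, 8779 RPM, but PBS replicate 2, the highest of its group for Thbs1, had the lowest, 391 RPM. Vcam1, an adhesion molecule of marrow macrophages and vessels and named after its values were seen, was at 147, 95.8 and 334 RPM in DT replicates 1 to 3. Whether these cells set the level of Thbs1 or Serpinb2 was not tested.

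**Figure D2:**
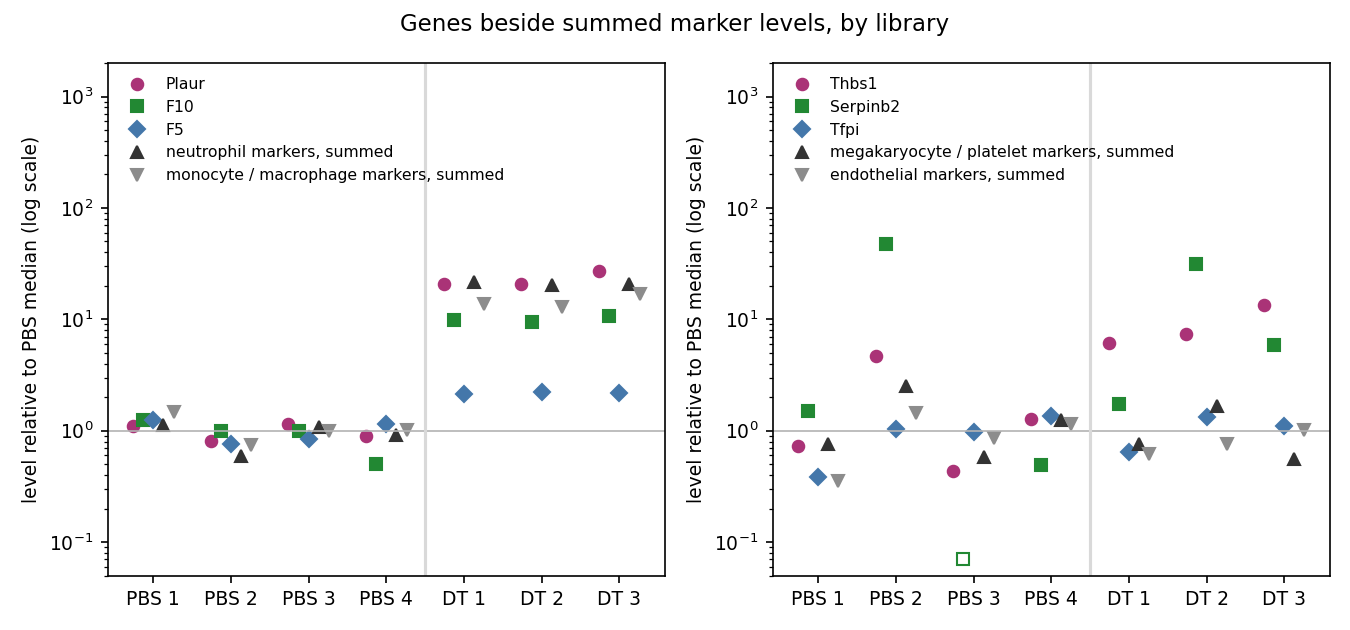
Levels by library relative to the median of the PBS libraries (log scale), for Plaur, F10 and F5 beside summed neutrophil and monocyte or macrophage markers (left), and for Thbs1, Serpinb2 and Tfpi beside summed platelet and endothelial markers (right; the open square marks Serpinb2 listed at 0). All DT points on the left lie above all PBS points, whereas on the right the platelet markers and Serpinb2 are highest in replicate 2 of each group. Most of the endothelial sum in PBS is Egfl7.

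F10 encodes factor X, the vitamin K-dependent protease on which the clotting routes converge. PBS replicates 1 to 4 had 5.51, 4.45, 4.43 and 2.22 RPM. In DT they were 43.5, 41.8 and 47.1 RPM. The DT libraries lay close together and the groups did not overlap. The means were 4.15 ± 1.38 RPM (SD, n = 4) and 44.1 ± 2.73 RPM (SD, n = 3), a ratio of 10.6, and on the log2(RPM + 1) scale F10 rose by 3.18 (SE 0.28; limma, adjusted p = 3.57e-05). Its profile was most like those of Pstpip2, an adaptor of myeloid cells, Nhsl2 and Scnn1a, at 0.090, 0.14 and 0.21 in log2 units over the 7 libraries.

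F7 encodes factor VII, the protease that works with tissue factor, and neighbours F10 on chromosome 8. F7 ends at 13035809 and F10 starts at 13037308 on the same strand, with 1498 bases between them. Despite this proximity F7 was listed at 0 in PBS replicates 1 to 4 and in DT replicate 1. DT replicate 2 had 0.357 RPM, or 15 reads, and DT replicate 3 had 0.410 RPM, or 21 reads. A count of 0 allows up to 0.0767 to 0.0904 RPM in a PBS library, so F7 was above that limit in 2 of 3 DT libraries. The exact two-sided permutation p was 0.143 (n = 4 and 3).

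F5, the cofactor that speeds the work of factor X, had a narrow spread in DT. PBS replicates 1 to 4 had 18.7, 11.4, 12.7 and 17.4 RPM. The DT values were 31.9, 33.5 and 32.8 RPM. The difference was modest in size but no library of one group reached the other. The means were 15.1 ± 3.52 RPM (SD, n = 4) and 32.7 ± 0.811 RPM (SD, n = 3), a ratio of 2.17, and on the log2(RPM + 1) scale F5 rose by 1.10 (SE 0.22; limma, adjusted p = 0.00465). Under median-ratio scaling, which moved the median change of all genes from -0.23 to -0.01, F5 differed by 1.33, F10 by 3.39, Plaur by 4.68 and Thbs1 by 2.87. The genes most like F5 were Msra, a repair enzyme for oxidised methionine, Sh3bgrl3 and Lrrfip1, at 0.064, 0.083 and 0.084. F5 shares 262 exon bases with Gm16548, a noncoding gene on the opposite strand, whose means were 2.10 ± 0.961 RPM for PBS and 3.08 ± 0.344 RPM for DT (SD, n = 4 and 3). Strand use is not known, so the reads of both genes cannot be told apart there. Gm29233 shares 208 bases with Thbs1 in the same way and reached at most 0.515 RPM.

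F10 and F7 are known as liver products, so liver genes were read in the same libraries. Alb, Ttr and Serpina1a, 3 of 5 hepatocyte markers, were listed at 0 in every library, as were the fibrinogen chains Fga, Fgb and Fgg. The 5 hepatocyte markers, with Apoh and Apoa1 the most abundant, summed to 0.128 to 0.362 RPM in PBS and to at most 0.664 RPM in DT. Other clotting factors were not all at 0. F12, for factor XII, was at 0 in every PBS library and in DT replicate 1, as F7 was. It was at 0.809 and 1.19 RPM in DT replicates 2 and 3. F9, for factor IX, had 0 to 3.16 RPM in PBS and 0.0239 to 3.30 RPM in DT. The source of F10 and F7 was not tested. F3, tissue factor, the partner of factor VII and named after its values were seen, was at 1.39 RPM in PBS replicate 1 and at 0 in the other PBS libraries, and at 0.569, 0.381 and 1.07 RPM in DT replicates 1 to 3. Factor XIII subunit A (F13a1), which cross-links fibrin and is known from monocytes and platelets, rose from 68.1 ± 38.4 RPM (SD, n = 4) to 509 ± 95.02 RPM (SD, n = 3; log2 change 3.03, limma, adjusted p = 0.000285).

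Tfpi, the inhibitor of the tissue factor complex, did not differ detectably between the groups. PBS replicates 1 to 4 had 2.89, 7.82, 7.33 and 10.2 RPM. DT replicates 1 to 3 had 4.87, 10.1 and 8.43 RPM. The ranges overlapped almost wholly, with replicate 1 the lowest of each group. The means were 7.06 ± 3.05 RPM (SD, n = 4) and 7.80 ± 2.66 RPM (SD, n = 3). The log2 difference was 0.18 with a 95% confidence interval of -0.71 to 1.06 (limma, adjusted p = 0.766), and this interval holds both a fall and a rise. Its most similar profiles were those of Slc39a3, Fbxo31 and Adora2a, at 0.13, 0.14 and 0.15.

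Procr, the receptor for protein C on endothelium and on some stem cells, was barely detected in PBS. It was at 0.0257 RPM, a single read, in PBS replicate 2 and at 0 in the other PBS libraries. DT replicates 1 to 3 had 0.891, 0.214 and 0.546 RPM, equal to 36, 9 and 28 reads. Each DT library was above each PBS library, at a mean under the minimum for the test. Pooled reads gave a ratio of 81.3, with a wide 95% interval of 14.1 to 3255 (exact binomial, counting error only). The exact two-sided permutation p was 0.0286 (n = 4 and 3), and without a filter on low values the log2 change of 0.60 passed (limma, adjusted p = 0.0362). Of the 15 endothelial markers, 3 had every DT library above every PBS library, beside 16.1% of all genes tested. Only 5 of the 15 reached the minimum for the test, so the 2 shares cover unlike sets of genes. Cdh5, the endothelial cadherin, overlapped: its PBS libraries had 2.68, 0.511, 0 and 0.0518 RPM, its DT libraries 3.39, 1.81 and 1.09 RPM. The list went both ways, and other markers had lower means after DT. Still, 0 of the 15 had every DT library below every PBS library. Egfl7, the most abundant of the list, averaged 27.9 ± 14.4 RPM after PBS but 13.9 ± 3.33 RPM after DT. For Plvap these means were 1.71 ± 1.38 RPM and 0.148 ± 0.236 RPM (SD, n = 4 and 3 for both genes). The part of endothelial cells in Procr was not tested.

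Levels of different genes were compared per kb of the longest annotated transcript. In DT the order was Plaur at 177 ± 28.1 RPM per kb, F10 at 17.6 ± 1.09, Thbs1 at 9.68 ± 4.25, F5 at 4.40 ± 0.109, Tfpi at 1.96 ± 0.671 and Plau at 0.785 ± 0.174 (SD, n = 3). Serpinb2, at 0.0554 to 1.01 RPM per kb, and Procr, at 0.133 to 0.554 RPM per kb, followed, their ranges overlapping that of Plau for Serpinb2 only. F7 came last, at no more than 0.220 RPM per kb. In PBS Plaur also led, at 7.71 ± 1.29 RPM per kb (SD, n = 4). Behind it F5 at 2.03 ± 0.474, Thbs1 at 1.92 ± 2.11, Tfpi at 1.78 ± 0.770 and F10 at 1.66 ± 0.552 did not differ beyond their spread, and Plau lay far below at 0.0470 ± 0.0208. The order of F10, Thbs1 and F5 was thus spread out in DT, whereas in PBS these genes overlapped. The receptor exceeded its ligand per kb in every library.

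**Figure D3:**
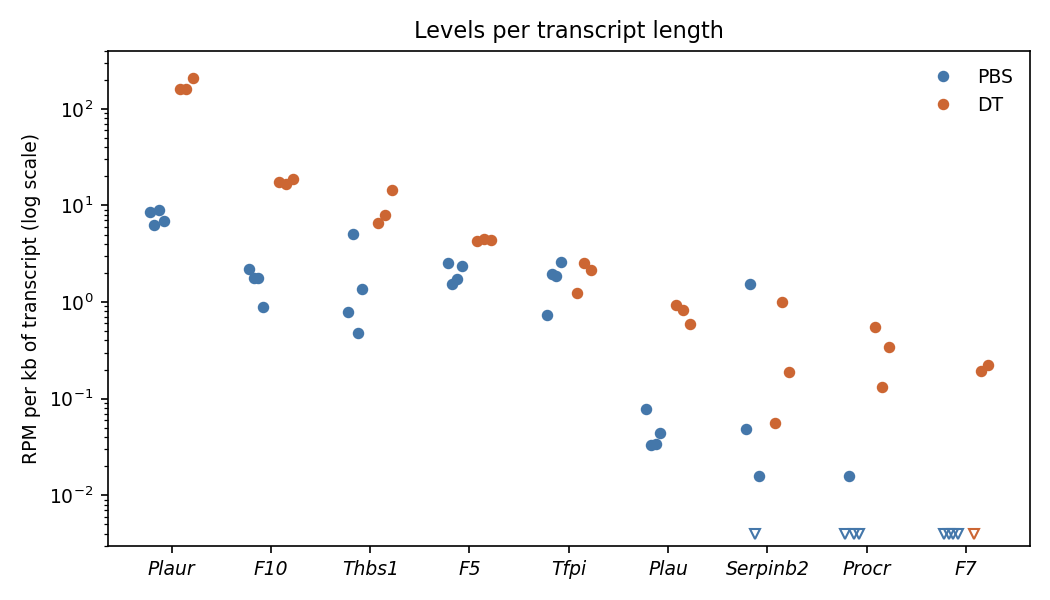
RPM per kb of the longest transcript for each gene (log scale; points are libraries, open triangles mark libraries listed at 0), ordered by the mean in DT. Plaur is highest in both groups, and F5, Thbs1, Tfpi and F10 lie together in PBS.

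A wider list of 69 genes, including the 9, placed these values in their pathway. It was drawn up with earlier results of these data known. Of its 69 genes, 35 were tested, and 11 rose and 3 fell, with a median log2 change of 0.18 beside -0.23 for all genes tested. Over all genes tested, 13.4% were higher and 18.6% lower, which are also the shares to set beside the groups by role below. Under median-ratio scaling 13 of the list rose and 0 fell, where 16.99% of all genes tested were higher and 8.91% lower. Without the 9 genes and without this scaling, 30 were tested, 7 rose and 3 fell (limma), and their median was 0.06. A total of 10 genes were listed at 0 in every library, among them the fibrinogen chains and F11, Proc and Vtn, for factor XI, protein C and vitronectin.

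In the urokinase and plasminogen group, 3 of 5 genes tested rose and 1 fell. Besides Plaur these were Anxa2, a surface receptor for plasminogen and its activator, and Lrp1, which clears protease and inhibitor complexes. Anxa2 rose from 34.1 ± 15.5 RPM to 623 ± 69.1 RPM and Lrp1 from 1.78 ± 1.05 RPM to 14.3 ± 3.47 RPM (SD, n = 4 and 3; limma, adjusted p = 6.74e-06 and 0.000630). S100a10, which pairs with Anxa2 in that receptor, differed by 0.03 on the log2 scale with an SE of 0.17. Plgrkt, another plasminogen receptor, fell from 52.2 ± 5.22 RPM to 37.0 ± 2.24 RPM (adjusted p = 0.0364), which no longer passed after median-ratio scaling (0.308), nor when PBS replicate 2 or 3 or any DT replicate was left out (adjusted p 0.0517 to 0.124). Among inhibitors of fibrinolysis both genes tested rose, Thbs1 and Serpine2, the latter from 6.76 ± 3.82 RPM to 22.1 ± 6.65 RPM (adjusted p = 0.00826).

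Plaur has no domain inside the cell and is known to signal through integrins, of which 2 of 5 tested rose. These were Itgb2, from 56.5 ± 12.8 RPM to 679 ± 61.6 RPM, and Itgam, from 25.8 ± 7.78 RPM to 304 ± 13.4 RPM (SD, n = 4 and 3; limma, adjusted p = 2.57e-06 and 5.06e-06). Together they form CD11b/CD18 of myeloid cells, and CD11b-stained cells had been excluded by the sort. Itgb1, Itgav and Itgb3 did not pass. For Itgb1, every DT library (27.1 to 30.7 RPM) still lay below every PBS library (32.0 to 80.8 RPM), as in 24.7% of all genes tested. Among 5 coagulation factors tested, F10, F13a1 and F5 rose, and 2 did not pass.

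Of 5 anticoagulants tested, Tfpi among them, 0 passed, and 1 had an unadjusted p under 0.05 (limma). This was Pros1, the cofactor of protein C, with means of 2.73 ± 1.39 RPM and 5.01 ± 0.548 RPM (SD, n = 4 and 3; limma, adjusted p = 0.112). Pros1 passed without PBS replicate 3 (0.0491). Serpinc1, antithrombin, was at 3.00 ± 1.88 RPM and 1.67 ± 1.01 RPM. None of the 3 thrombin-type receptors tested passed, with F2r at 6.15 ± 2.88 RPM and 8.21 ± 4.03 RPM and F2rl3 at 1.85 ± 2.13 RPM and 2.48 ± 1.36 RPM. Neither of the tested thrombospondin receptors passed, with 0 of these 5 receptors at an unadjusted p under 0.05 (limma), Cd47 at 530 ± 52.1 RPM and 437 ± 31.2 RPM and Cd36 at 12.04 ± 4.39 RPM and 13.6 ± 6.08 RPM (SD, n = 4 and 3).

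Of 8 genes that process clotting factors, 1 rose and 2 fell. Mcfd2, part of the receptor that carries factor V and factor VIII out of the endoplasmic reticulum, rose from 25.0 ± 6.90 RPM to 51.3 ± 1.82 RPM (SD, n = 4 and 3; limma, adjusted p = 0.00584), while its partner Lman1 differed by -0.22 with an SE of 0.28. Vkorc1l1, a vitamin K reductase, fell from 33.2 ± 13.4 RPM to 12.8 ± 5.31 RPM (adjusted p = 0.0277) with overlapping groups, and Tpst1, a tyrosine sulfotransferase, from 9.80 ± 1.22 RPM to 5.28 ± 0.815 RPM (adjusted p = 0.0355). Neither fall passed after median-ratio scaling (adjusted p = 0.0590 and 0.115). Nor did they pass when PBS replicate 3, PBS replicate 4, DT replicate 2 or DT replicate 3 was left out, Vkorc1l1 also without PBS replicate 2 and Tpst1 also without DT replicate 1 (adjusted p 0.0601 to 0.128). Without both libraries numbered 2 the values were 0.178 and 0.0725, and with no filter Vkorc1l1 was at 0.104 (limma, adjusted p).

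**Figure D4:**
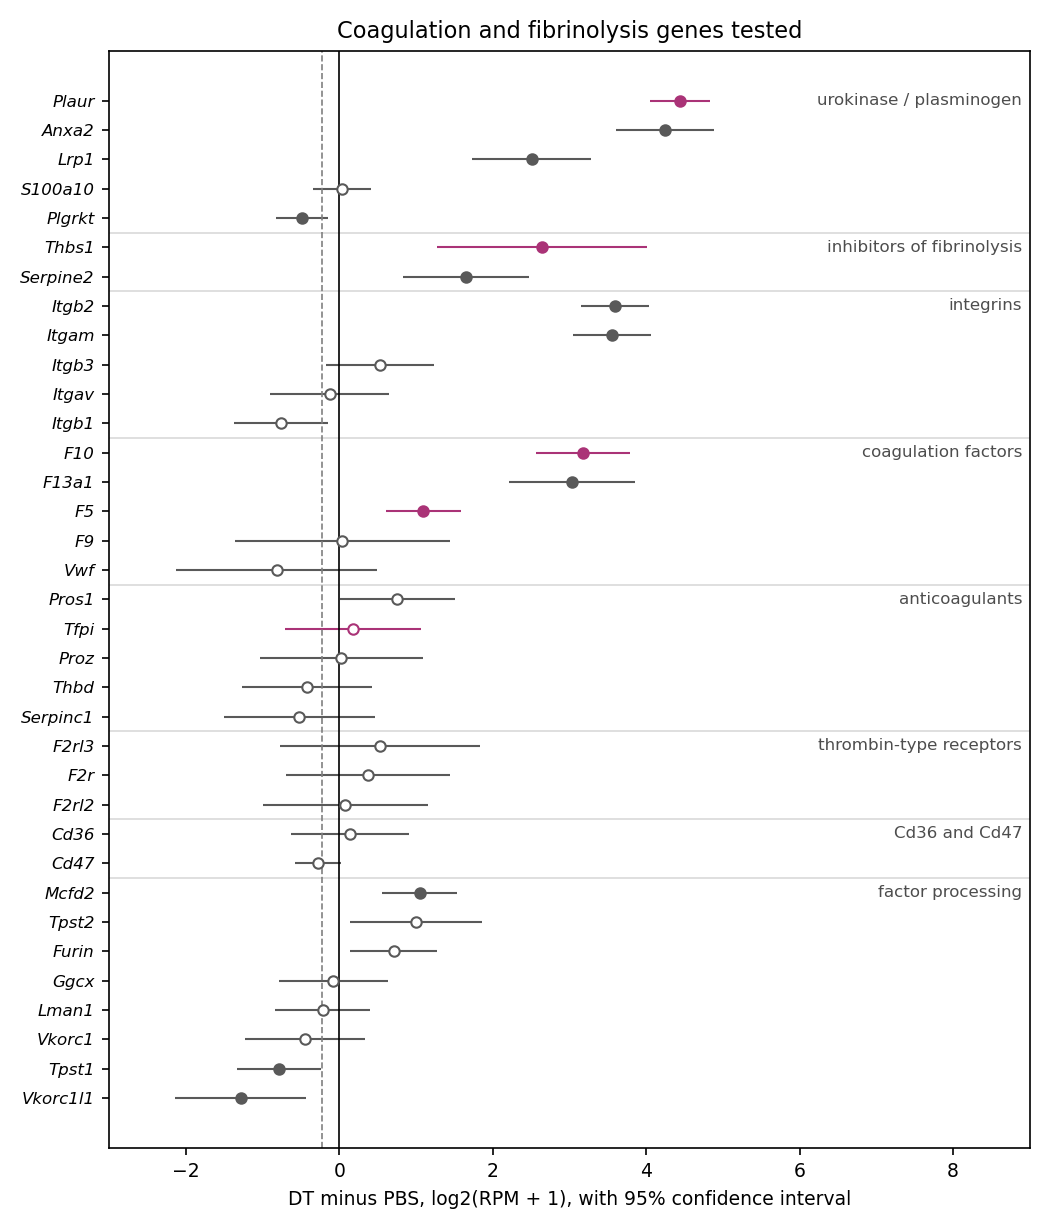
Difference of DT and PBS in log2(RPM + 1) with 95% confidence intervals (limma) for the 35 genes tested of the wider list, by role; purple points are among the 9 genes, filled points passed the adjusted threshold, and the dashed line is the median of all genes tested. Plaur, Anxa2, Itgb2, Itgam, F10 and F13a1 lie to the right of 3 on the log2 scale.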

How the data were processed

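RNA from 4 PBS and 3 DT samples was sequenced from 1 ng of total RNA after SMARTer amplification and 14 cycles of PCR, as single reads of 50 bases, per the labels' protocols. STAR 2.5.3a, Partek and mm10 are named per the submitters' processing notes. Which annotation, counting and strand setting were used is not given in the sources used here. A single table named as FPKM was deposited by the authors, but its values behave as RPM with an offset of 0.0001: in each library the commonest low value, read as the worth of 1 read, was shared by 1025 to 1202 genes. Of values up to 20 reads, 59.5% to 61.7% were whole within 0.02, so no count model was used. The test covered 14100 genes averaging 1 RPM or more over the 7 libraries, on log2(RPM + 1), which understates changes of low genes, with limma 3.58.1 in R 4.3.3 and an intensity trend. The method was tested on simulated data in which few genes changed, so that test does not cover changes as common as those found here. Transcript lengths and positions are from GENCODE vM21, promoters from RefSeq. Exact permutation tests used 35 splits and are reported for the 4 genes under the minimum. Alternatives were median-ratio scaling, quantile normalization, a pseudocount of 0.1, no filter, a minimum of 5 RPM, no intensity trend, sample weights, the replicate number as a block, each library left out, and both libraries numbered 2 left out.

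The 9 genes, the gene lists and the tests were chosen with earlier results of these data known. Genes named besides the 9 are, in each role of the wider list, at most 4 that passed, taken by p, or else the 2 lowest p; the 2 most abundant of each marker list; and the 3 genes with the most similar profile to each tested gene, leaving out predicted genes. S100a10, Lman1, Itgb1, Itgav, Itgb3, Cdh5, Flt1, Plvap, F3, F9, F12, Myb, Vcam1 and Serpinb10 were chosen after their values were seen.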

Additional observations from a re-analysis of the deposited data

Results flagged for a closer look

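Among the PBS groups of the 9 genes and the 16 named genes of the wider list, 25 in all, 2 had a library far from the other PBS libraries. F7, at 0 in every PBS library, had no spread and could not be flagged. Chance alone gives about 1 in 20 groups where values spread normally, which groups with values at 0 do not. Serpinb2 was at 3.05 RPM in PBS replicate 2 and at most at 0.0971 RPM in the other PBS libraries. Procr was at 0.0257 RPM in PBS replicate 2, which is 1 read, and at 0 in the other PBS libraries. With those at 0, any read in PBS replicate 2 would have been flagged.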

How the results depend on the processing

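Plaur, F10 and F5 kept their direction and their call under all 16 alternatives, with log2 changes of 4.31 to 4.68, 2.96 to 3.45 and 0.97 to 1.33. Thbs1 kept its direction, and its lost calls are given above. Of the 9 genes 3 to 5 were higher and 0 lower under every alternative, but without a filter the 5 were Plaur, F10, F5, Plau and Procr. Tfpi, which never passed, turned to -0.035 with sample weights and ranged from -0.14 to 0.44 when single libraries were left out. Cd36 turned to -0.0077 with sample weights and ranged from -0.18 to 0.41, and F2r from -0.0026 to 0.81, when single libraries were left out. Of all genes, the number lower in DT was 2622, and fell to 1257 with median-ratio scaling, to 1709 with no minimum level and to 1414 without both libraries numbered 2, added after seeing the data; leaving out single libraries gave 1215 to 3613, with 1502, 1610 and 1215 without DT replicate 1, 2 and 3. The 3 falls of the wider list became 0 under median-ratio scaling and without both libraries numbered 2, and 0 to 6 when single libraries were left out; the cause was not tested. With the replicate number as a block 1574 genes were lower in all and 0 of the wider list, and no call of the 9 genes changed. Deviations of libraries sharing a number correlated at 0.00998 to 0.0485, and those of other pairs at -0.0483 to 0.0488. PBS replicates 1 and 2 were each best with their own number, and PBS replicate 3 was not. With so few libraries, these values cannot decide whether the numbers pair the samples. Levels near 3 reads (0.0585 to 0.0904 RPM), as of Plau, F7 and Procr in PBS, are limited by depth.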
